A study of Homo sapiens with 6 samples.

Results

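The genes described here encode regulators of the BCL2 family, the proteins that decide whether the mitochondrial outer membrane is opened during apoptosis. They are the prosurvival genes MCL1, BCL2L1 and BCL2L2, the effector genes BAX and BAK1, and the BH3-only genes BCL2L11, BBC3, BID, BAD and BMF. Members were found by the gene symbol that the platform annotation gives to each probe set, the group of short probes that together measure a transcript. This gave 29 probe sets with exactly 1 symbol, for 9 of the 10 genes. The array holds 54675 probe sets, of which 41091 carry 1 symbol, for 19775 genes. Another 2 probe sets carry a member's symbol beside those of other genes. The only probe set annotated to BBC3 is among these 2 and the other is shared by BCL2L2, so no value is given for BBC3 and 2 probe sets remain for BCL2L2.

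The RNA came from Hep3B, an established human liver cancer cell line, and each of 6 samples was hybridised to 1 Affymetrix HG-U133 Plus 2 array. The 3 miR-17 TuD arrays are from cells given a viral tough decoy (TuD), an RNA with exposed microRNA binding sites, against miR-17. The 3 NC TuD arrays are from cells given the NC decoy, the control. Both lines took up virus over 48 hours (multiplicity of infection 5, with 10.0 μg/mL polybrene) and were kept in 1.0 μg/mL puromycin. Colonies that resisted it were joined after 2 weeks into 1 stable line per decoy. The labels do not name the promoter that drives the decoys. Each sample description also holds a code, which reads PLUSDOX on every miR-17 TuD array, NODOX on every NC TuD array and 72HR on all 6. The sources used here do not explain it, and what it stands for cannot be told apart from the decoy. No label says whether the 3 samples with a decoy were grown as separate cultures. The p-values therefore measure only how these samples spread, and that spread may be technical. With 1 line per decoy, other differences between the lines cannot be told apart from the decoy, even if the cultures were separate.

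Prosurvival BCL2 proteins hold the effectors BAX and BAK in check. BH3-only proteins are switched on by stress, growth factor loss or death receptor signals, and they either neutralise the prosurvival proteins or activate the effectors directly. Oligomers of BAX or BAK then release cytochrome c from mitochondria. In hepatocytes, death receptor signals depend on BID, which caspase-8 cleaves, to reach the mitochondria.

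The miR-17 family is a set of microRNAs that share a seed, the bases that pair with target mRNAs, and BCL2L11 and MCL1 are reported as its targets. The mature sequences below are credited to RefSeq (GRCh38.p14), with bases 2 to 8 in capitals. They are miR-17-5p, which the decoy is named against, and the family members that share its seed. The labels do not say which of them the decoy binds. All 6 hold the same seed, AAAGUGC.
miR-17-5p (chr13:91350618-91350640, plus strand): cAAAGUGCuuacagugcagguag
miR-20a-5p (chr13:91351072-91351094, plus strand): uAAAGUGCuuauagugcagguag
miR-20b-5p (chrX:134169850-134169872, minus strand): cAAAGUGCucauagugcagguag
miR-93-5p (chr7:100093815-100093837, minus strand): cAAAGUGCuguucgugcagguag
miR-106a-5p (chrX:134170244-134170266, minus strand): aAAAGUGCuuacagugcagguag
miR-106b-5p (chr7:100094043-100094063, minus strand): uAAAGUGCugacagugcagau

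All levels are the authors' deposited log2 values, which ran from 2.12 to 16.3, and each difference is the miR-17 TuD mean less the NC TuD mean on that log2 scale. Correlations over the tested probe sets were 0.9989 to 0.9993 within groups, and 0.9977 to 0.9984 between them. The hepatocyte-derived markers were present in all arrays, with 6 of 6 above the filter on low values and levels from 7.55 to 16.02 in the miR-17 TuD arrays and from 9.01 to 16.23 in the NC TuD arrays. They moved with the groups: every miR-17 TuD array lay below every NC TuD array for ALB, AFP, APOA1, TTR and FGB and above for SERPINA1, and their summed linear level was 108298 to 113280 in the miR-17 TuD arrays and 119766 to 124624 in the NC TuD arrays. Their part in the results below was not tested. The leukocyte and endothelial markers stood at 3.83 or less in the miR-17 TuD arrays and at 3.88 or less in the NC TuD arrays. Of the fibroblast markers, COL3A1 was at the lowest value of the arrays and PDGFRB under 4, while COL1A1 stood at 12.44 to 13.03 in the miR-17 TuD arrays and at 12.42 to 12.48 in the NC TuD arrays.

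All 29 member probe sets passed the filter on low values and were tested. BID, which encodes the BH3-only protein that links death receptors to mitochondria, was higher in the miR-17 TuD arrays on each of its 3 probe sets, by 1.26-fold to 1.33-fold. BAD, which encodes a BH3-only protein controlled by growth factor signalling, rose on 1 of 3 probe sets, by 1.21-fold. BAX, which encodes a pore-forming effector, fell on 1 of 2 probe sets, being 1.19-fold lower. None of the 12 probe sets of the prosurvival genes and none of the 7 of BCL2L11 passed the threshold. The threshold was an adjusted p of 0.05 in limma with Benjamini-Hochberg adjustment over 32768 probe sets.

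In all, 4 of 29 member probe sets were called higher and 1 lower, which is 17.2% of them, and 11 of 29 had an unadjusted p under 0.05. Over all tested probe sets 5.83% were called, 3.35% higher and 2.48% lower, and 22.1% had an unadjusted p under 0.05. Probe sets with a mean level above 7 were called more often, at 9.57% over the series and in 5 of 23 members. The calls come from 3 genes, and 3 of the 5 called probe sets measure BID, so they are not independent observations. Groups did not overlap for 9 member probe sets with higher and 2 with lower values in the miR-17 TuD arrays, against a background of 27.3% of all tested probe sets. The median difference of the members was 0.05, and that of all tested probe sets was 0. The differences of the members ran from -0.26 to 0.41.

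**Figure D1:**
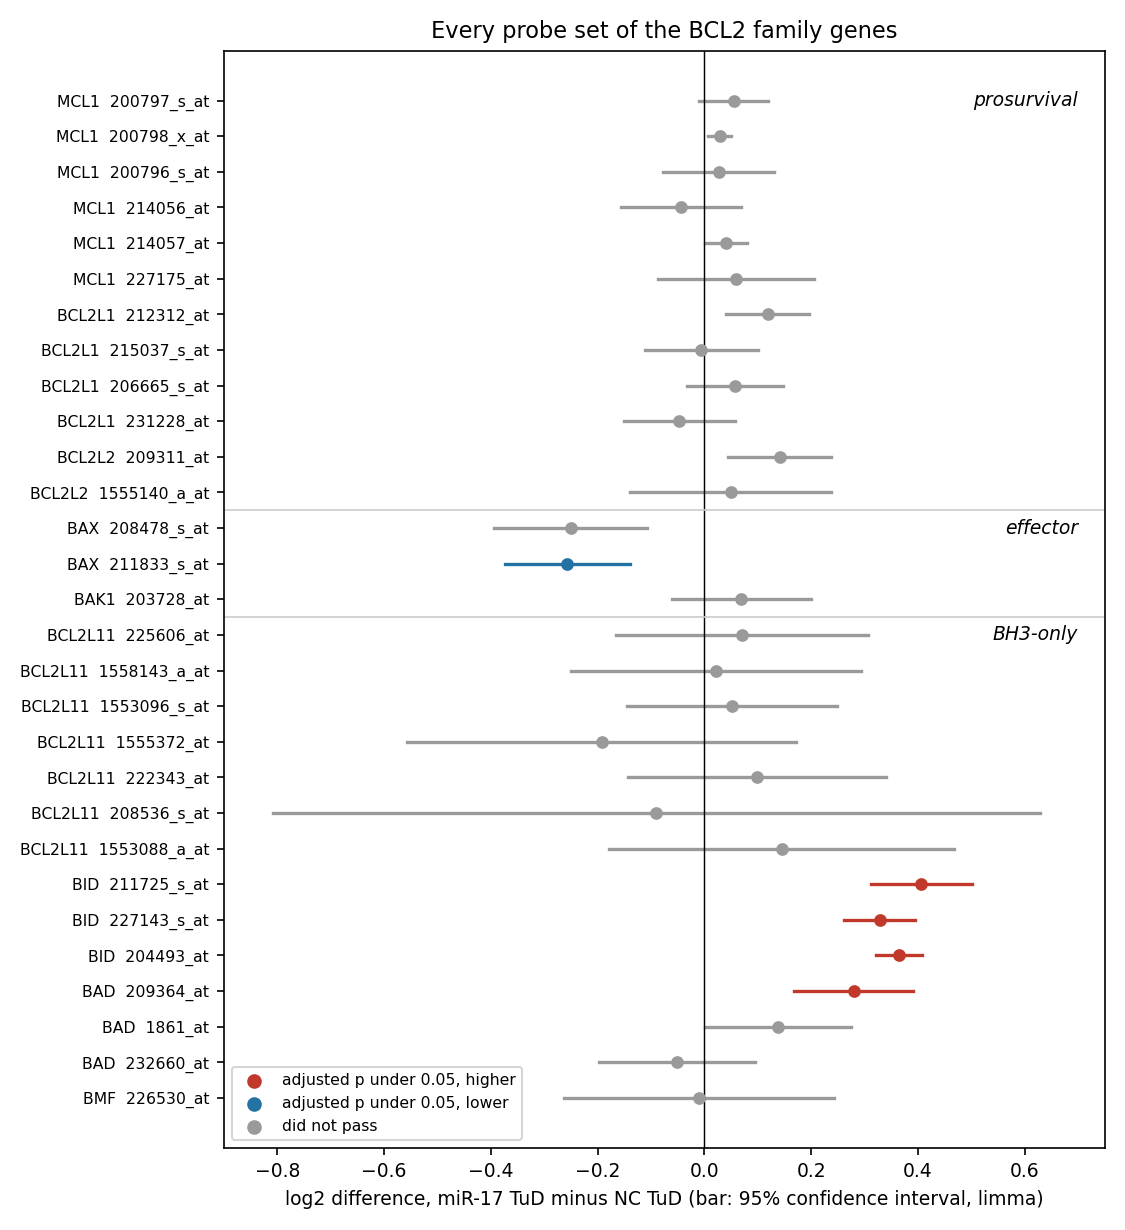
Log2 difference of each of the 29 member probe sets, miR-17 TuD minus NC TuD (x axis), with the 95% confidence interval from limma as a bar, in the order prosurvival, effector and BH3-only genes from top to bottom. The 3 BID probe sets lie at 0.33 to 0.41, the 2 BAX probe sets at -0.26 and -0.25, and the BCL2L11 bars all cross 0.

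Among the BH3-only genes, BID gave the most uniform values. Its probe set 204493_at read 11.37, 11.33 and 11.33 in the miR-17 TuD arrays, against 10.96, 10.99 and 10.99 in the NC TuD arrays. Every miR-17 TuD array stood above every NC TuD array, with a gap far wider than the range within either group. The difference was 0.36 (SE 0.016, 95% confidence interval 0.32 to 0.41), a 1.29-fold rise with an adjusted p of 0.00631 in limma.

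Probe set 211725_s_at of BID read 12.18, 12.14 and 12.19 in the miR-17 TuD arrays, against 11.81, 11.69 and 11.79 in the NC TuD arrays. It differed by 0.41 (SE 0.036, adjusted p = 0.0154 in limma), the largest difference among the members. Probe set 227143_s_at of BID read 12.05, 11.97 and 12.01 in the miR-17 TuD arrays, against 11.70, 11.66 and 11.69 in the NC TuD arrays, a difference of 0.33 (SE 0.025, adjusted p = 0.0128). The groups did not overlap on either of them, and the spread within a group was at most 0.061 (SD, n = 3) on the 3 BID probe sets. With single arrays left out in turn, 6 fits in all, the 204493_at call always held, with adjusted p from 0.0191 to 0.0421. The 211725_s_at call ended without NC TuD replicate 1 or 3 (adjusted p up to 0.0628). That of 227143_s_at ended whichever NC TuD array was left out (adjusted p up to 0.0638). Calls over the whole series also fell most without an NC TuD array, from 1098 higher with all 6 arrays to between 81 and 124. Without a miR-17 TuD array, 389 to 673 were called higher.

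BAD encodes a BH3-only protein that growth factor kinases phosphorylate and that 14-3-3 proteins then hold in the cytosol. Its probe set 209364_at read 10.12, 10.19 and 10.24 in the miR-17 TuD arrays, against 9.95, 9.86 and 9.89 in the NC TuD arrays. The groups were apart by more than the range within the NC TuD arrays, and the difference was 0.28 (SE 0.042, adjusted p = 0.0376 in limma). Probe set 1861_at, annotated to the same transcript record, read 9.54, 9.49 and 9.63 in the miR-17 TuD arrays, against 9.47, 9.35 and 9.42 in the NC TuD arrays. The groups lay next to each other without overlap, and the difference of 0.14 (95% confidence interval 0.00083 to 0.28) did not pass, with an adjusted p of 0.224. The third probe set, 232660_at, was near the low end of the scale, with 4.61 in each miR-17 TuD array and 4.61, 4.78 and 4.60 in the NC TuD arrays, and its difference was -0.05 (adjusted p = 0.598). Of the 6 fits with an array left out, the 209364_at call passed in that without miR-17 TuD replicate 1 (adjusted p = 0.0498), and in the other 5 the adjusted p ran from 0.0752 to 0.133. It also ended with no filter (adjusted p = 0.0903), and averaged over its 3 probe sets BAD differed by 0.12 (adjusted p = 0.0484 over 13949 genes).

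**Figure D2:**
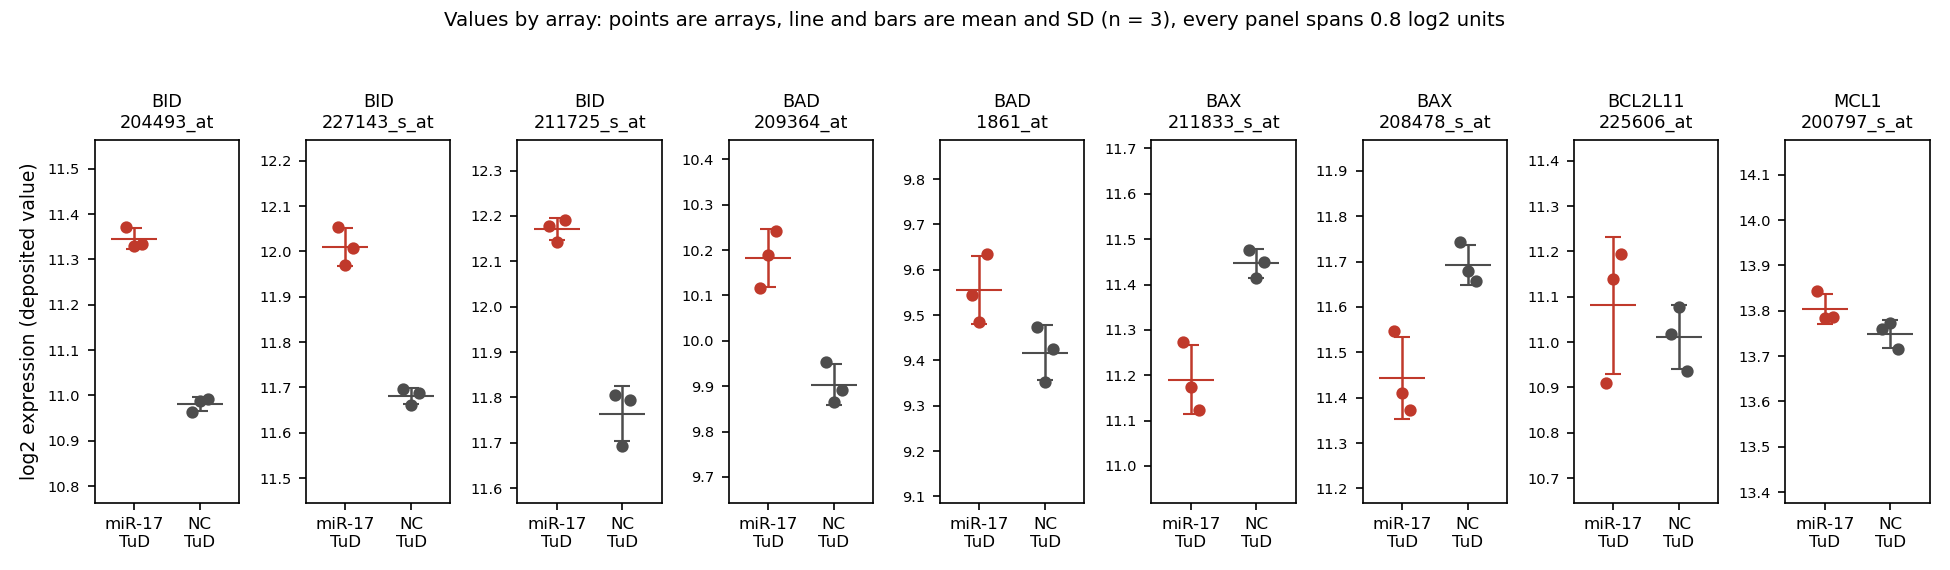
Deposited log2 values (y axis) by array for probe sets of BID, BAD, BAX, BCL2L11 and MCL1, with miR-17 TuD left of NC TuD. Points are arrays, the line and bars are the mean and SD (n = 3), and every panel spans 0.8 log2 units. The groups are apart in the BID, BAD and BAX panels and in the MCL1 panel, where the difference is 0.05, and they overlap for BCL2L11.

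BCL2L11 encodes BIM, a BH3-only protein that binds every main prosurvival protein and is made in several isoforms. Its 7 probe sets ranged in level from 5.36 to 11.08 by group mean. The brightest, 225606_at, read 10.91, 11.14 and 11.19 in the miR-17 TuD arrays, against 11.02, 11.08 and 10.94 in the NC TuD arrays. One miR-17 TuD array was the lowest of the 6 and the other two were the highest, so the groups overlapped. The difference was 0.07 (95% confidence interval -0.17 to 0.31, adjusted p = 0.660 in limma), an interval that reaches from 0.892-fold to 1.24-fold.

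The second brightest BCL2L11 probe set, 1558143_a_at, read 10.09, 9.84 and 10.19 in the miR-17 TuD arrays, against 9.98, 10.10 and 9.98 in the NC TuD arrays, a difference of 0.02 (95% confidence interval -0.25 to 0.29). For 1553096_s_at the values were 9.39, 9.34 and 9.49 in the miR-17 TuD arrays, against 9.49, 9.29 and 9.29 in the NC TuD arrays, a difference of 0.05 (-0.14 to 0.25). On neither probe set did the groups separate. The lowest point estimate, -0.19 (95% confidence interval -0.56 to 0.17), was that of 1555372_at, at 7.86, 8.24 and 8.23 in the miR-17 TuD arrays, against 8.24, 8.46 and 8.21 in the NC TuD arrays. The others were 0.10 on 222343_at, -0.09 on 208536_s_at and 0.15 on 1553088_a_at. In sum 5 of 7 point estimates were above 0 and 2 below it, no groups were apart, and adjusted p ran from 0.493 upwards.

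The miR-17 TuD arrays varied more for BCL2L11 than for BID. Over the series, limma gave lower array weights, which mark a wider spread, to the miR-17 TuD arrays (0.469 to 1.06) than to the NC TuD arrays (1.26 to 1.58). On 208536_s_at the SD was 0.45 in the miR-17 TuD arrays and 0.24 in the NC TuD arrays (n = 3 each), and the 95% confidence interval of the difference ran from -0.81 to 0.63. With the 7 probe sets averaged, BCL2L11 differed by 0.02 (95% confidence interval -0.23 to 0.26, adjusted p = 0.974 in limma over 13949 genes). Differences of the size measured for BID lie outside that averaged interval. They are not outside the interval of every single probe set. The upper limits were 0.63 on 208536_s_at, 0.47 on 1553088_a_at and 0.34 on 222343_at.

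BMF encodes a BH3-only protein that is tethered to the actin motor complex in healthy cells. Its only probe set, 226530_at, read 11.20, 11.37 and 11.55 in the miR-17 TuD arrays, against 11.42, 11.35 and 11.37 in the NC TuD arrays. The miR-17 TuD values reached both above and below all NC TuD values, with an SD of 0.18 in the miR-17 TuD arrays and 0.032 in the NC TuD arrays (n = 3 each). The difference was -0.01 (95% confidence interval -0.26 to 0.24, adjusted p = 1 in limma).

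**Figure D3:**
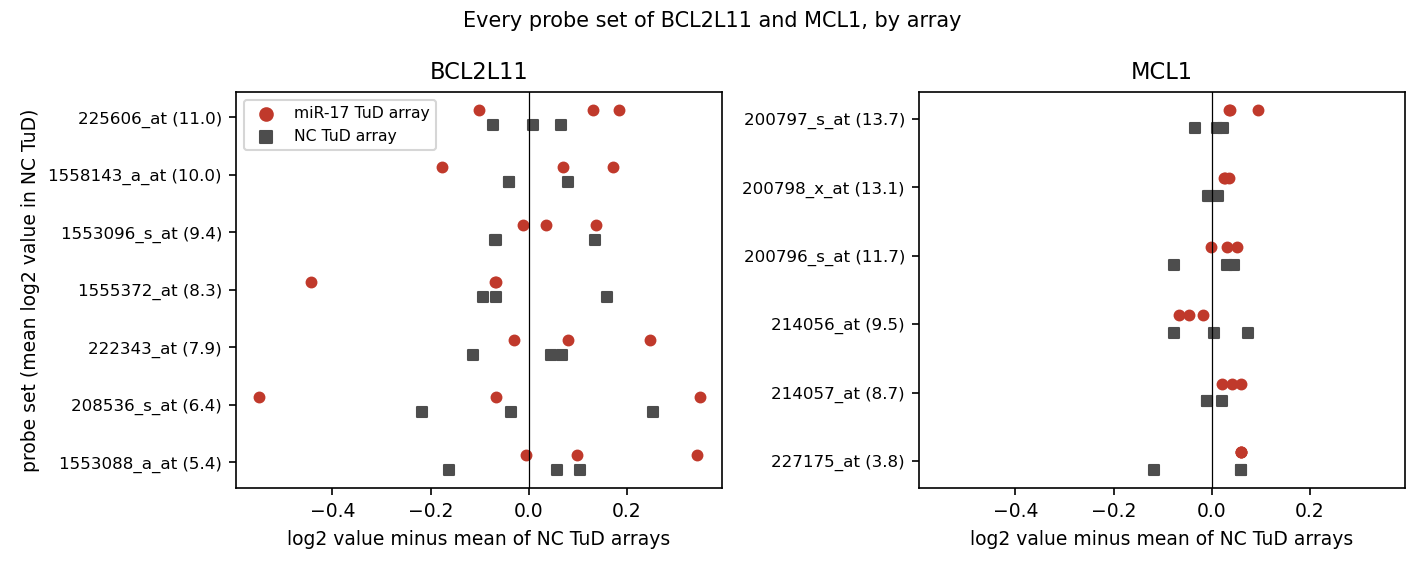
Values of every probe set of BCL2L11 (left) and MCL1 (right) by array, as the log2 value minus the mean of the NC TuD arrays (x axis), with the mean NC TuD level in brackets on the y axis. Circles are miR-17 TuD arrays and squares NC TuD arrays. The BCL2L11 values spread widely around 0 in both groups, and the MCL1 values lie within a narrow band.

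The effector BAX went the other way from BID. Probe set 211833_s_at read 11.27, 11.17 and 11.12 in the miR-17 TuD arrays, against 11.48, 11.41 and 11.45 in the NC TuD arrays, and probe set 208478_s_at read 11.55, 11.41 and 11.37 in the miR-17 TuD arrays, against 11.74, 11.68 and 11.66 in the NC TuD arrays. Every miR-17 TuD array lay below every NC TuD array on both, with replicate 1 the highest miR-17 TuD array each time. The differences were -0.26 (95% confidence interval -0.37 to -0.14, adjusted p = 0.0498 in limma) and -0.25 (-0.39 to -0.11, adjusted p = 0.0766), so sizes were alike and the threshold fell between them. The 211833_s_at call held in 1 of the 6 fits with an array left out, that without miR-17 TuD replicate 1 (adjusted p = 0.0397, and up to 0.157 in the others), and it ended with the arrays centred on their medians (adjusted p = 0.0595), with robust eBayes (0.0603) and with no filter (0.115). Over 13949 genes, BAX differed by -0.25 both with the probe sets averaged (adjusted p = 0.0427) and with the brighter one alone, which did not pass (adjusted p = 0.0545). Both probe sets carry the suffix s_at, which marks probes that several transcripts can share. The same suffix is on 211725_s_at and 227143_s_at of BID.

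BAK1 encodes the other effector. Its probe set 203728_at read 9.99, 10.11 and 10.00 in the miR-17 TuD arrays, against 9.98, 9.90 and 10.01 in the NC TuD arrays, and the groups overlapped. The difference was 0.07 (95% confidence interval -0.06 to 0.20, adjusted p = 0.489 in limma).

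The RefSeq promoter table (GRCh38.p14) holds 250 bases before to 50 bases after a gene's start for 8 of the 10 members. The promoters of the 3 genes with a called probe set are shown, each from the first start the table lists. Searched on both strands, CACGTG, the E-box, was in 7.26% of 35116 promoters in the table, and GGGCGG, the GC box, in 45.0%. CCAAT, also searched, was in 34.6%, with 2 copies in BAX, 0 in BID and 1 in BAD at the starts shown. The word marked was chosen gene by gene, so its share over the table is no test. In BAX the capitals mark 4 copies of CACGTG, and 5 of 35116 promoters held 4 or more.
BAX (chr19:48954625-48954924, plus strand): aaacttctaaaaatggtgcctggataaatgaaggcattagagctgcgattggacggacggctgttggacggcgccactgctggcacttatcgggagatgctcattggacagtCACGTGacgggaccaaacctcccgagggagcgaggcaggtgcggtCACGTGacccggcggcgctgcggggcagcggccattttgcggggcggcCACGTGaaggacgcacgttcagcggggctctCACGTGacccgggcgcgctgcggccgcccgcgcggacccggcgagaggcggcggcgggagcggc
In BID and BAD the capitals mark GGGCGG or its reverse complement, with 4 copies in BID, a number that 9.06% of promoters reached, and 1 copy in BAD.
BID (chr22:17774420-17774719, minus strand): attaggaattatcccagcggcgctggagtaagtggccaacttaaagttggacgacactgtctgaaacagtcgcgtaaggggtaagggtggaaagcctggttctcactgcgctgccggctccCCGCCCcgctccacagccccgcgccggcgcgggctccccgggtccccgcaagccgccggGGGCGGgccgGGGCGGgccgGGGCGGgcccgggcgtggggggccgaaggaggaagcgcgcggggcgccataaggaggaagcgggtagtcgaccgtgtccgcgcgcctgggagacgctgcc
BAD (chr11:64284655-64284954, minus strand): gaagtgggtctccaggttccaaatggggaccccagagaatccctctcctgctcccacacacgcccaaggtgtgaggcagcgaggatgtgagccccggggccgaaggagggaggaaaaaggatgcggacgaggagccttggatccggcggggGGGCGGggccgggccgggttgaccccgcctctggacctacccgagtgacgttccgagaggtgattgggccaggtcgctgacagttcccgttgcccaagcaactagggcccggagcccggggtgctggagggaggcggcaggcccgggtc
BID has 5 starts in the table and BAD 2, and the copies of GGGCGG ranged from 0 to 4 over the BID starts. The marked words were not particular to the genes they are marked in. GGGCGG had 3 copies in BCL2L11 and 2 in BAK1, which had no call, and 2 in BAX. CACGTG had 1 copy in BBC3 and was also found at some BID starts. None of the listed member promoters held any of the E2F words TTTCCCGC, TTTCGCGC, TTTGCCGC or TTTGGCGC, which 3.32% of all promoters held. These matches describe the letters of these windows only.

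The prosurvival genes differed little. MCL1 encodes a short-lived prosurvival protein that hepatocytes depend on. Its brightest probe set, 200797_s_at, read 13.84, 13.78 and 13.79 in the miR-17 TuD arrays, against 13.76, 13.77 and 13.71 in the NC TuD arrays. The groups did not overlap, with a gap smaller than the range within either group, and the difference was 0.05 (95% confidence interval -0.01 to 0.12, adjusted p = 0.295 in limma).

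MCL1 probe set 200798_x_at read 13.14, 13.13 and 13.13 in the miR-17 TuD arrays, against 13.10, 13.11 and 13.10 in the NC TuD arrays. These were the tightest values of any member probe set above the low end of the scale, and the difference of 0.03 (SE 0.0081) did not pass, with an adjusted p of 0.129. On 200796_s_at, 214056_at and 214057_at the differences were 0.03, -0.04 and 0.04, and none passed. Probe set 227175_at, at a low level, stood at 3.88 in all arrays but NC TuD replicate 1, at 3.70. Averaged over its 6 probe sets, MCL1 differed by 0.03 (95% confidence interval -0.02 to 0.08, adjusted p = 0.442 over 13949 genes).

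BCL2L1 encodes BCL-XL, the main prosurvival partner of BAX in many epithelial cells. Its brightest probe set, 212312_at, read 12.22, 12.22 and 12.29 in the miR-17 TuD arrays, against 12.15, 12.08 and 12.14 in the NC TuD arrays, with no overlap. The difference was 0.12 (95% confidence interval 0.04 to 0.20) with an adjusted p of 0.101 in limma. The other BCL2L1 probe sets differed by -0.01 on 215037_s_at, 0.06 on 206665_s_at and -0.05 on 231228_at, with overlapping groups on each.

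BCL2L2 encodes BCL-W, a further prosurvival protein. Probe set 209311_at read 9.38, 9.39 and 9.48 in the miR-17 TuD arrays, against 9.29, 9.31 and 9.23 in the NC TuD arrays, and the groups were apart. The difference was 0.14 (95% confidence interval 0.04 to 0.24, adjusted p = 0.110 in limma), and it passed with the arrays centred on their medians (0.16, adjusted p = 0.0366). Probe set 1555140_a_at, at a low level, differed by 0.05 with overlapping groups. Over the 3 prosurvival genes, 4 of 12 probe sets had groups apart, all higher in the miR-17 TuD arrays, beside 27.3% of all tested probe sets with groups apart and 13.7% apart with higher values there. The differences lay between -0.05 and 0.14.

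By array, the genes most like the reported targets were picked by Pearson correlation over the 6 arrays among 27082 probe sets with 1 symbol. Those of BCL2L11 were CCSER2 (r = 0.988), COCH (0.987) and NUP210 (0.986), and those of MCL1 were ZCCHC14 (0.996), MRPL35 (0.993) and TUBA1B (0.993). Over so few arrays, 42 probe sets reached an r above 0.95 with BCL2L11 and 84 with MCL1, its own included, and none of the genes named passed the threshold.

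A list of 19 other BCL2 family genes also holds genes of interaction partners, BCLAF1, BECN1, BNIP1, BNIP2 and MOAP1 among them. In it, 15 genes were tested on 31 probe sets, of which 2 were called, both lower, 6.45% beside 5.83% of all tested probe sets. They measure BNIP3, a mitochondrial protein that marks mitochondria for autophagy. Its probe set 201849_at read 12.74, 12.65 and 12.69 in the miR-17 TuD arrays, against 12.93, 12.93 and 12.96 in the NC TuD arrays, and 201848_s_at read 11.65, 11.57 and 11.67 in the miR-17 TuD arrays, against 11.89, 11.90 and 11.88 in the NC TuD arrays. The groups were apart on both, with differences of -0.25 (SE 0.025, adjusted p = 0.0181 in limma) and -0.26 (SE 0.03, adjusted p = 0.0229). Both calls ended whichever NC TuD array was left out. In addition, 201848_s_at ended without miR-17 TuD replicate 1 and 201849_at without replicate 3, with adjusted p up to 0.0994 and 0.0813. The effector relative BOK, at 10.86, 10.88 and 11.01 in the miR-17 TuD arrays, against 10.68, 10.61 and 10.63 in the NC TuD arrays, differed by 0.28 with an adjusted p of 0.0506. PMAIP1, which encodes the MCL1 antagonist NOXA, had the largest point estimate of this list at 0.82. Its miR-17 TuD values of 4.79, 5.34 and 4.16 were scattered above NC TuD values of 3.94, 3.92 and 3.96, at a low level, and it did not pass (adjusted p = 0.230). BOK and PMAIP1 are named because of their values.

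The death receptor pathway, whose receptors activate the caspase that cleaves BID, had 6 of 31 tested probe sets called, 5 higher and 1 lower, 19.4% beside 5.83% of all tested probe sets and 9.57% of those with a mean level above 7. The 5 higher calls come from 2 genes, so they are not independent observations. This list, like the others, was chosen with earlier results of these data known, so its share is only a description. All 3 probe sets of TNFRSF10B, which encodes the TRAIL receptor DR5, rose. Its brightest, 209295_at, read 12.54, 12.63 and 12.66 in the miR-17 TuD arrays, against 12.20, 12.24 and 12.27 in the NC TuD arrays, a difference of 0.38 (SE 0.04, adjusted p = 0.0201 in limma), and the other two differed by 0.60 and 0.49. TNFRSF10D, which encodes a TRAIL receptor with a truncated death domain, rose on both of its probe sets, by 0.31 on 227345_at (adjusted p = 0.0103) and by 0.41 on 210654_at (adjusted p = 0.0141). The groups were apart on all 5. The remaining call, 209508_x_at of CFLAR, which encodes the caspase-8 inhibitor FLIP, was lower, with a difference of -0.28 (adjusted p = 0.0274). It was 1 of 12 CFLAR probe sets, of which 4 had point estimates above 0 and 8 below it, and their average of -0.17 did not pass (adjusted p = 0.0943). CFLAR and 227345_at lie outside the 4 probe sets taken per list and are named because of their values. Every TNFRSF10B call ended whichever NC TuD array was left out, 209295_at also without miR-17 TuD replicate 2, 210405_x_at also without miR-17 TuD replicate 1, and 209294_x_at without any miR-17 TuD array too (adjusted p up to 0.111). The TNFRSF10D calls ended without NC TuD replicate 1, 210654_at also without replicate 2 and 227345_at also without replicate 3 (adjusted p up to 0.0656), and the CFLAR call was lost in all 6 fits (adjusted p up to 0.0914).

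Of 37 tested probe sets of the apoptosome and caspase list, 4 were higher and 1 lower. That is 13.5%, beside 5.83% of all tested probe sets and 9.57% of those with a mean level above 7. The lower one, 204859_s_at, measures APAF1, the scaffold that cytochrome c assembles into the apoptosome. It read 10.57, 10.62 and 10.61 in the miR-17 TuD arrays, against 10.79, 10.80 and 10.82 in the NC TuD arrays, a difference of -0.20 (SE 0.017, adjusted p = 0.0147 in limma), while the gene's other tested probe set differed by -0.09 without passing and their average of -0.15 did not pass (adjusted p = 0.106). Of the mitochondrial channel genes, VDAC2 rose on its only tested probe set (0.13 on 211662_s_at, adjusted p = 0.0406) and VDAC1 on 1 of 3 (0.18 on 217140_s_at, adjusted p = 0.0128), with 0.14 (adjusted p = 0.0526) and 0.05 on the others. The nuclease inhibitor gene DFFA rose on 1 of 3 (0.18 on 226116_at, adjusted p = 0.0438), with 0.08 and 0.04 on the others and 0.10 with the 3 averaged (adjusted p = 0.0235). The effector caspase gene CASP6, named because of its value, differed by 0.075 on 209790_s_at (adjusted p = 0.0301) and by -0.02 on its other probe set (adjusted p = 0.681), and their average of 0.03 did not pass (adjusted p = 0.315). The APAF1 and VDAC1 calls ended whichever NC TuD array was left out (adjusted p up to 0.0687). With an array left out, those of VDAC2, DFFA and CASP6 held only without miR-17 TuD replicate 1, and the CASP6 call also ended with quantile normalization, median centring, no filter and the 60th percentile filter. The DFFA call also ended with no filter, with robust eBayes, and when s_at and x_at types were dropped. The list's median was 0.03. Among 22 probe sets of IAP proteins, which inhibit caspases, and their antagonists, 1 was called, 4.55% beside the same 5.83%. It measures BIRC2, which encodes cIAP1. It read 12.17, 12.16 and 12.10 in the miR-17 TuD arrays, against 12.39, 12.41 and 12.30 in the NC TuD arrays, a difference of -0.22 (adjusted p = 0.0435), and no fit with an array left out kept the call (adjusted p up to 0.143).

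The list of factors that induce BH3-only genes also holds BCL6, CHAC1 and TRIB3, which are not such factors. It had 3 of 30 probe sets called, all higher. That is 10%, beside 5.83% of all tested probe sets and 9.57% of those with a mean level above 7. E2F1, a cell cycle transcription factor and itself a reported miR-17 family target, rose on both of its probe sets, by 0.42 on 2028_s_at (adjusted p = 0.0400 in limma) and by 0.33 on 204947_at (adjusted p = 0.0388). JUN, an AP-1 subunit, rose on 1 of 4 probe sets, by 0.24 on 201466_s_at (adjusted p = 0.0366), and over its 4 probe sets the differences ran from -0.02 to 0.24, with an average of 0.08 (adjusted p = 0.0177 over 13949 genes). The E2F1 204947_at and JUN calls were lost whichever array was left out, with adjusted p up to 0.144 and 0.128. That of E2F1 2028_s_at held only without miR-17 TuD replicate 3.

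Among 74 probe sets of kinases, ubiquitin ligases and scaffolds that act on the member proteins, 3 were called higher and 1 lower, 5.41% against 5.83% over the series. SFN, which encodes the 14-3-3 sigma protein, was higher on 2 of 3 probe sets. On 33322_i_at it read 9.67, 9.89 and 9.96 in the miR-17 TuD arrays, against 9.28, 9.21 and 9.28 in the NC TuD arrays, a difference of 0.58 (SE 0.084, adjusted p = 0.0348 in limma), and on 33323_r_at the difference was 0.67 (adjusted p = 0.0471). MAPK8, the stress kinase JNK1, rose by 0.13 on 226048_at (adjusted p = 0.0471), and GSK3B, a kinase that marks MCL1 for degradation, was lower on 226191_at, with a difference of -0.29 (adjusted p = 0.0481). Each of MAPK8 and GSK3B had 5 probe sets, and the other 4 did not pass. The GSK3B average of -0.08 did not pass (adjusted p = 0.0813), and the MAPK8 average was 0.10 (adjusted p = 0.0264). With an array left out, both SFN calls and that of MAPK8 held only without miR-17 TuD replicate 1, and that of GSK3B only without NC TuD replicate 3. With no filter on low values, the calls of BNIP3 201848_s_at, TNFRSF10B 209294_x_at and 209295_at, CFLAR, VDAC2, BIRC2, JUN, MAPK8, GSK3B and both probe sets of E2F1 and of SFN also ended. With robust eBayes, and likewise with s_at and x_at types dropped, those of BIRC2, GSK3B, MAPK8 and SFN 33323_r_at ended. Array weights ended those of BIRC2, GSK3B and E2F1 204947_at, and eBayes with trend that of MAPK8.

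**Figure D4:**
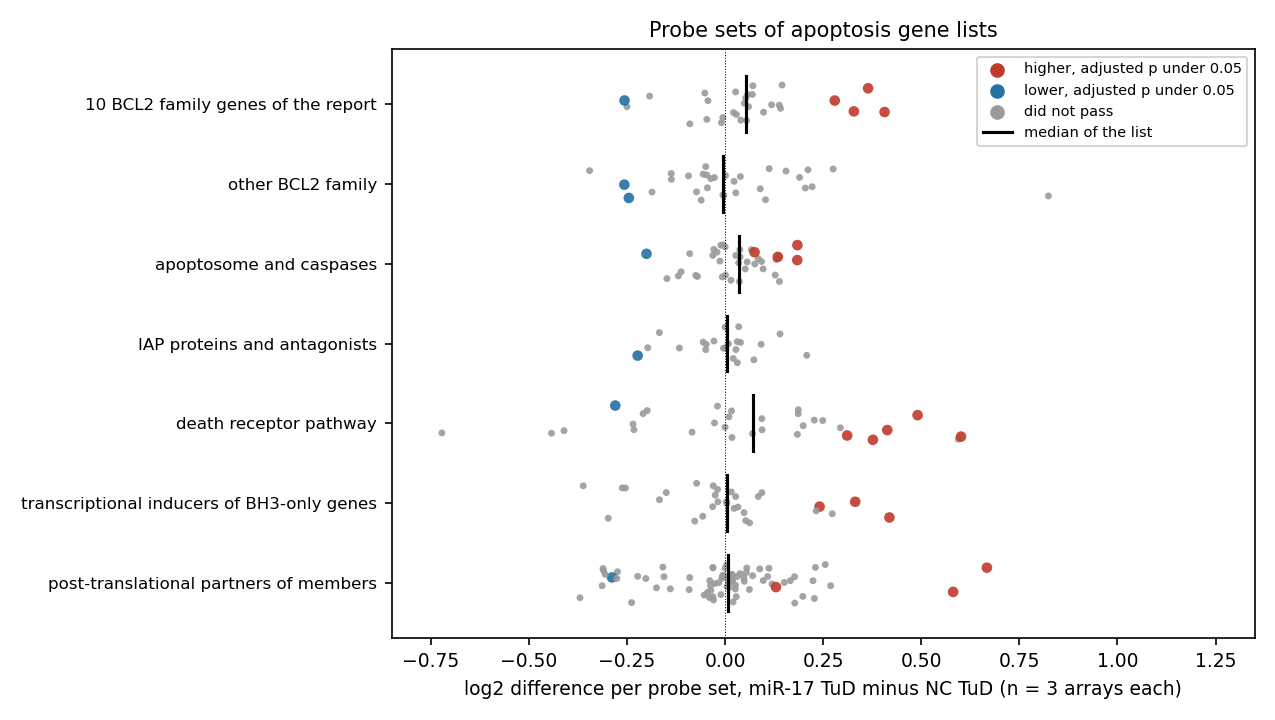
Log2 differences per probe set, miR-17 TuD minus NC TuD (x axis), for the 10 BCL2 family genes and for 6 further lists of apoptosis genes. Large coloured points passed an adjusted p of 0.05 in limma, small grey points did not, and black lines are list medians, which lie between -0.01 and 0.07.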

How the data were processed

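The authors deposited log2 values, 1 for each probe set in each of the 6 samples. RMA and GCRMA are the tools named, per the submitters' processing notes, and the notes do not say which of them made the values. The lowest value, 2.12, was shared by 34.9% to 35.4% of probe sets per array, so changes of weakly expressed transcripts can be hidden. Array medians ran from 2.75 to 2.78, and values were used as deposited. The number of arrays limits the precision.

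Control probe sets (62) were left out, as were probe sets with a mean at or under the 40th percentile (2.14), leaving 32768 to test. Symbols are those of GEO's platform annotation, updated by Entrez identifier (RefSeq, GRCh38.p14), and no gene was named from the 1801 probe sets that carry more than 1. The test was 2-sided, by lmFit and eBayes of limma (version 3.58.1, R 4.3.3), with Benjamini-Hochberg adjustment over all tested probe sets. The code was tested on simulated data. Members and lists were chosen with earlier results of these data known. Named were every member probe set, every called probe set of the other BCL2 family list, in each further list up to 4 called probe sets by size of difference, and the 3 genes most like each reported target. The alternatives varied scaling, filter, probe set summary, variance model, array weights and the replicate number as a block, and left out each array.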

Additional observations from a re-analysis of the deposited data

How the results depend on the processing

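Over 17 alternatives, 396 of 439 member results kept their direction and side of the threshold. Most of these were of probe sets not called in the main fit. Of the rest, a call ended in 24, a call was gained in 4 and the sign turned in 15. The BAX 211833_s_at call ended in 9 of 14 alternatives and the BAD 209364_at call in 7 of 17. For BID, the call ended in 4 of 14 on 227143_s_at, 3 of 16 on 211725_s_at and 1 of 15 on 204493_at. Member probe sets called higher and lower numbered 4 and 1 as reported. They numbered 1 to 4 and 0 to 2 with an array left out, 2 and 0 with 1 probe set per gene, 2 and 0 when probe sets of type s_at or x_at were dropped, 2 and 1 with averaged probe sets, 5 and 0 with median centring, 4 and 0 with robust eBayes, 3 and 0 with no filter, and 4 and 2 with the 60th percentile filter. Over all probe sets, 1098 and 812 calls became 81 to 124 and 64 to 110 without an NC TuD array. Without a miR-17 TuD array they became 389 to 673 and 291 to 552. Calls higher numbered 1853 with median centring. Calls higher and lower numbered 330 and 224 with no filter, 1705 and 1566 with the 60th percentile filter, and 437 and 399 when s_at and x_at types were dropped. Over the 6 further lists, 15 and 6 calls became 0 to 13 and 0 to 3 with an array left out, 23 higher with median centring, 4 and 2 with no filter, 14 lower with the 60th percentile filter, 9 higher with 1 probe set per gene, 3 lower with averaged probe sets, and 5 and 1 when s_at and x_at types were dropped. The causes were not tested.

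The replicate numbers were not taken as pairs, since deviations of same-numbered arrays from their group means correlated at 0.04, 0.10 and 0.11. With the replicate block, limma called 0 of all, 0 of the member and 0 of the list probe sets in either direction, with a smallest adjusted p of 0.0541 and with 7488 of all and 8 member probe sets at an unadjusted p under 0.05.

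Signs turned only for differences that passed in neither setting. With median centring these were BCL2L1 215037_s_at (0.016) and BMF (0.013), and with array weights BCL2L11 1558143_a_at (-0.022). With an array left out, BCL2L1 215037_s_at ran from -0.041 to 0.018, BMF from -0.098 to 0.078, BCL2L11 1558143_a_at from -0.054 to 0.12, BCL2L11 208536_s_at from -0.31 to 0.14, BCL2L2 1555140_a_at from -0.020 to 0.085, BAD 232660_at from -0.084 to 0.0076, and MCL1 200796_s_at from -0.012 to 0.050.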
